A study of Mus musculus with 14 samples.

Results

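The adult hemoglobin chain genes Hba-a1, Hba-a2, Hbb-bs and Hbb-bt and the erythroid heme synthesis gene Alas2 were compared library by library in the mouse hippocampus under 3 oxygen conditions. The members were the rows of the deposited gene table whose symbol began with Hba- or Hbb-, together with Alas2, which gave 5 of its 7756 genes. The libraries came from male wild-type C57BL/6J mice that were 8 weeks of age at the start. Over 28 days the control group (n = 4) breathed 21% oxygen, the intermittent hypoxia (IH) group (n = 5) was switched between 10% and 21% oxygen in 2-min cycles for 8 h of each day, and the sustained hypoxia (SH) group (n = 5) was held at 10% oxygen for 8 h of each day. In the main experiment the hippocampi were collected after behavioral tests, under isoflurane and by decapitation, and the sources used here name no perfusion. The control libraries came from a preliminary experiment and the IH and SH libraries from the main one, so exposure and experiment cannot be told apart in any comparison with the control group.

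Hemoglobin carries oxygen in red blood cells as a tetramer of paired alpha and beta chains, each holding a heme group. Alas2 encodes the erythroid form of 5-aminolevulinate synthase, which makes the first committed intermediate of heme. These genes are transcribed at very high levels in erythroid precursors of the bone marrow and spleen, and reticulocytes, the youngest circulating red cells, still hold the messenger RNA. Hemoglobin RNA in brain tissue can come from blood left in the vessels, and low levels have also been described in neurons and glia. In these bulk libraries, fewer cells of a type and less RNA per cell cannot be told apart.

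All 4 hemoglobin genes were lower in the IH group than in the control group, at 0.507 to 0.689 times the control mean. Alpha and beta chains were lower together, to 0.633 and 0.636 times the control mean, and the ratio of alpha to beta counts was 1.10 ± 0.087 (SD, n = 4) in the control group and 1.10 ± 0.13 (n = 5) in the IH group. The SH means lay between the means of the other two groups, and in edgeR none of the 4 genes passed the test in SH vs. control or in IH vs. SH gene by gene. Alas2 was sparse and passed no test in any comparison.

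The 2 alpha genes lie next to each other on chromosome 11 (GRCm39, GENCODE vM39, plus strand, each with 3 exons). Hba-a1 (ENSMUSG00000069919.9) spans chr11:32233186-32234504, and Hba-a2 (ENSMUSG00000069917.9) spans chr11:32246168-32247320. The adult beta genes lie on the minus strand of chromosome 7, Hbb-bs (ENSMUSG00000052305.8) at chr7:103475730-103482989 and Hbb-bt (ENSMUSG00000073940.5) at chr7:103461727-103465047. Alas2 (ENSMUSG00000025270.15) is on the X chromosome at chrX:149330371-149353634, on the plus strand with 11 exons. The embryonic chains of the alpha and beta clusters were not analysed here.

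Each chain is encoded by a pair of copies that share much of their sequence. The coding sequences of Hba-a1 and Hba-a2 (429 nt each) differed by 1 base, C381T counted from the first base of the start codon, and those of Hbb-bs and Hbb-bt (444 nt each) also differed by 1 base, C417T. Neither change alters the encoded residue, so the members of a pair encode the same protein of 142 (alpha) or 147 (beta) residues. The stretches of 60 bases around the differing base are shown, with that base in capitals. A read wholly within the coding sequence, taken without its mate, can be assigned to 1 copy only if it covers that base.
Hba-a1 coding stretch: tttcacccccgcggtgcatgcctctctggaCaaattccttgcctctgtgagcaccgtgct
Hba-a2 coding stretch: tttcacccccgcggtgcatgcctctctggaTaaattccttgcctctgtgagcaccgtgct
Hbb-bs coding stretch: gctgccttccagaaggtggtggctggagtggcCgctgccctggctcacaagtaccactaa
Hbb-bt coding stretch: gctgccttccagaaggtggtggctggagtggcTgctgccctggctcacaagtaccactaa

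From the start codon to the end of the transcript, 58.8% of the 150-nt windows of Hba-a1 also occurred in Hba-a2, and 62.4% of those of Hbb-bs occurred in Hbb-bt. On its own, a read of 150 bases from such a window fits both copies, and its paired mate may or may not tell them apart. How these reads were shared out was decided when the authors' counts were made. Values of single copies are therefore uncertain in both pairs, and the sum of a pair is the firmer measurement. No window was shared between Hba-a1 and Hbb-bs, whose coding sequences were 62.3% identical, so alpha and beta sums are separate measurements.

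The promoters of the 5 genes were examined because the hemoglobin genes were lower together. The 220 bases before the RefSeq start site, taken from a RefSeq table of GRCm38.p6 and placed on GRCm39 by exact match, are shown 5′ to 3′ with the motifs found in capitals.
Hba-a1 promoter (chr11:32233452-32233671, plus strand): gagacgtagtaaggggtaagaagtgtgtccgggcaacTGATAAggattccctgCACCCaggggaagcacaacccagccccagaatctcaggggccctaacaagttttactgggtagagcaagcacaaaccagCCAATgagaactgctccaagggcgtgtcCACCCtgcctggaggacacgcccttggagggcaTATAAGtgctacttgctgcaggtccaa
Hbb-bs promoter (chr7:103477136-103477355, minus strand): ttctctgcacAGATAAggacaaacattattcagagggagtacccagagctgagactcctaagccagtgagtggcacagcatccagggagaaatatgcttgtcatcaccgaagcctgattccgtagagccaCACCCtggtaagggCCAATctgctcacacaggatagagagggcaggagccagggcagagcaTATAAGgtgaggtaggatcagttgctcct
Hbb-bt promoter (chr7:103463131-103463350, minus strand): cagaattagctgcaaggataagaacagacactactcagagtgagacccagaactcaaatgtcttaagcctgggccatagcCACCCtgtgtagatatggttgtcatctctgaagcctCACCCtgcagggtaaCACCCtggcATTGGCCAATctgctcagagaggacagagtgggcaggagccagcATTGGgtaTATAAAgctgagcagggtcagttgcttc
Alas2 promoter (chrX:149330193-149330412, plus strand): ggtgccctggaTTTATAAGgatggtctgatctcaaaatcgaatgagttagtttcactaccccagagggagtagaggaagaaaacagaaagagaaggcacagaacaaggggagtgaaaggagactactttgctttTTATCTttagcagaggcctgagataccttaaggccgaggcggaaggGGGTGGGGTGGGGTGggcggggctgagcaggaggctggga

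The promoter of Hba-a2 (chr11:32246272-32246491, plus strand) carries the same sequence as that of Hba-a1, with a start site 3 bases further on. GENCODE vM39 also lists transcripts that begin further upstream, so the gene spans given above run past these start sites. Over 250 bases and both strands, the GATA motif, searched as AGATAA and also as TGATAA and with a final G as AGATAG and also as TGATAG, the site class of the erythroid factor GATA1, was found in 4 of 5 members and in 26.5% of 32841 promoters. The Hbb-bt promoter did not hold these letters in that window. CACCC, the core of sites bound by KLF1 and related factors, was found in all 5 members and in 52.0% of promoters. CCAAT was found in the 4 hemoglobin genes and in 33.9% of promoters, and a TATA motif (TATAAA or TATAAG) was found in all 5 and in 17.0% of promoters. In the hemoglobin genes the TATA motif began 27 to 30 bases before the start site, whereas in Alas2 it lay over 200 bases upstream, and there the forward and reverse matches overlapped. ACGTG, a form of the core of sites bound by hypoxia-inducible factors, was found in none of the 5 and in 16.6% of promoters. The form GCGTG was not part of the search, and its letters occur in the promoters of Hba-a1 and Hba-a2. The absence of ACGTG therefore does not show that the members lack such a core. These matches describe letters in a window and say nothing about binding.

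The libraries held 7203663 to 11777102 counts over the genes of the table, and the 4 hemoglobin genes took 0.0316 to 0.0347% of the counts in the control group, 0.0183 to 0.0251% in the IH group and 0.0241 to 0.0334% in the SH group. The 95% Wilson intervals of these shares were narrow, for example 0.0174 to 0.0192% for the lowest library (IH replicate 2), and they cover counting error only. Neuronal markers of the hippocampus were abundant in all groups, such as Slc17a7, the vesicular glutamate transporter of excitatory neurons, at 31514 normalized counts in the control group, 26906 in the IH group and 26335 in the SH group. Some of these 14 markers moved between the groups. Slc17a7 was lower in SH vs. control (log2 fold change -0.26, edgeR adjusted p = 0.0215), and Prox1, a marker of dentate granule cells, was higher in IH vs. control (0.66, 0.0169) and SH vs. control (0.81, 0.00388), as was Gad1, a marker of inhibitory neurons, in SH vs. control (0.30, 0.00728). None of the 14 was called in IH vs. SH by edgeR, DESeq2 or limma or had an unadjusted p under 0.05 there, and the part of tissue composition in the hemoglobin result was not tested. Choroid plexus markers, by contrast, ranged from 5341 to 134067 summed normalized counts across libraries, and all 3 groups held both low and high libraries.

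Levels are given as normalized counts, which are the deposited counts scaled by the trimmed mean of M-values (TMM). Hba-a1 stood at 918.2, 905.0, 979.2 and 735.6 in control replicates 1 to 4, at 576.8, 535.9, 766.9, 582.1 and 580.7 in IH replicates 1 to 5, and at 949.6, 725.3, 674.4, 634.7 and 879.2 in SH replicates 1 to 5. The IH libraries lay below every control library with the exception of IH replicate 3, and the SH libraries overlapped with both other groups. Hba-a2 stood at 667.0, 706.0, 571.7 and 823.7 in the control group, at 426.3, 338.0, 360.2, 433.9 and 386.6 in the IH group, and at 738.2, 539.9, 516.4, 462.3 and 441.9 in the SH group. All IH libraries of Hba-a2 were below all control libraries and below all SH libraries, and SH replicate 1 was the only SH library inside the control range.

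Hbb-bs, the more abundant beta gene, stood at 984.6, 1066.3, 937.4 and 1102.3 in the control group, at 738.8, 674.9, 913.6, 566.2 and 631.8 in the IH group, and at 926.0, 829.8, 917.4, 730.9 and 752.6 in the SH group. Every IH library and every SH library was below the lowest control library, although IH replicate 3 and SH replicates 1 and 3 came close to it. Hbb-bt, the minor beta gene, stood at 379.5, 427.9, 395.9 and 490.7 in the control group, at 283.2, 85.6, 226.6, 219.1 and 258.0 in the IH group, and at 448.1, 370.9, 168.9, 338.6 and 364.4 in the SH group. The IH and control libraries of Hbb-bt did not overlap, and IH replicate 2 and SH replicate 3 were far below the rest of their groups.

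Alas2 was near the bottom of the table, at rank 7498 of 7756 genes by mean in the control group. Its normalized counts were 36.4, 26.1, 41.8 and 37.0 in the control group, 25.1, 14.5, 37.0, 25.4 and 21.3 in the IH group, and 19.2, 38.9, 40.1, 36.2 and 21.9 in the SH group. The groups overlapped, with IH replicate 3 inside the control range and SH replicates 1 and 5 below every control library. The coefficient of variation among the control libraries was 18.8%, against 16.1% from counting error alone.

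**Figure D1:**
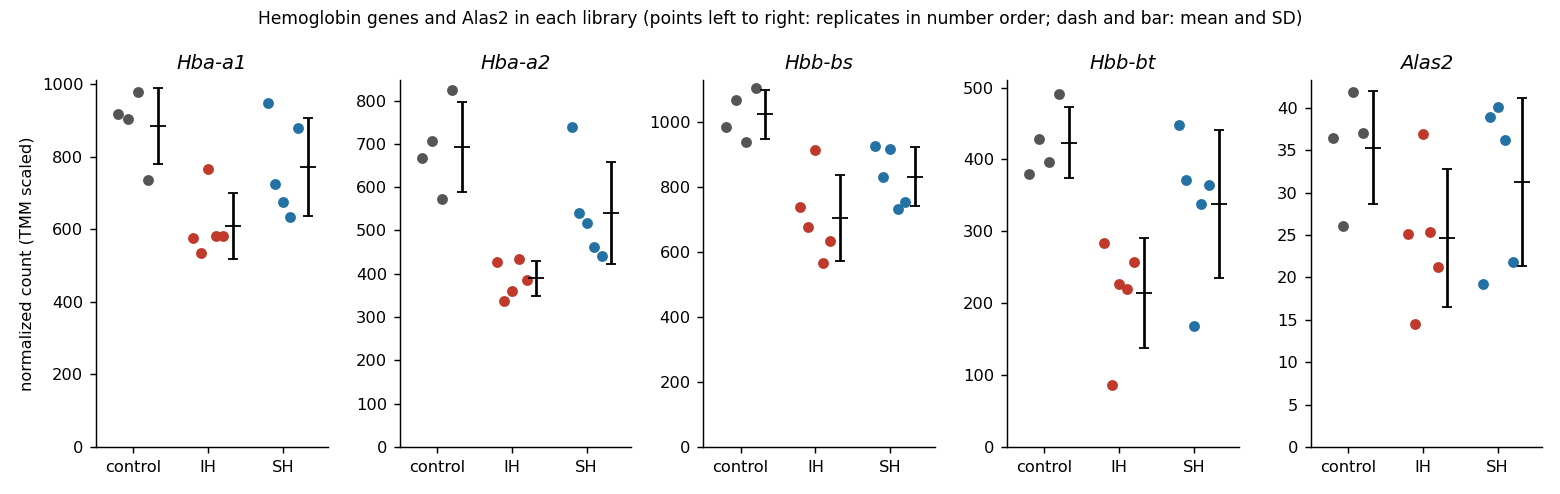
Normalized counts (y axis, linear from 0) of the 4 hemoglobin genes and Alas2 in the control, IH and SH groups (x axis). Each point is a library in replicate order, and the dash with its bar is the group mean and SD. The IH points of Hba-a2, Hbb-bs and Hbb-bt sit below all control points, and those of Alas2 overlap with them.

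Levels were also scaled per kilobase of coding sequence, a length that leaves out the untranslated ends of the transcripts. On this scale the control group held 2303 ± 169 normalized counts for Hbb-bs, 2062 ± 243 for Hba-a1, 1613 ± 243 for Hba-a2, 954 ± 111 for Hbb-bt and 20.0 ± 3.76 for Alas2 (SD, n = 4). The order of the means was the same in the IH and SH groups. The difference between the neighbors Hbb-bs and Hba-a1 was about as large as their SDs in the control group. It was smaller than the SDs in the IH group (1588 ± 298 and 1418 ± 211) and the SH group (1872 ± 203 and 1801 ± 316, n = 5), so these 2 genes could not be ordered on this scale. Their transcripts have 664 nt (Hbb-bs) and 738 nt (Hba-a1), and scaling by transcript length was not done. The order within a pair depends on how shared reads were assigned.

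In the IH vs. control comparison, 4 of the 4 members tested were lower with an adjusted p under 0.05 (edgeR quasi-likelihood test, Benjamini-Hochberg adjustment over 7338 genes), against a background of 4.85% of all tested genes called lower. The largest difference in size was that of Hbb-bt, at a log2 fold change of -0.98 (SE 0.28, adjusted p = 0.0354). Hba-a2 changed by -0.83 (SE 0.14, adjusted p = 0.00288), Hba-a1 by -0.54 (SE 0.13, adjusted p = 0.0170) and Hbb-bs by -0.54 (SE 0.12, adjusted p = 0.0110), while the median over all tested genes was -0.02. The groups did not overlap for 3 of the 4 members, against 7.48% of all tested genes that were lower without overlap. Alas2 did not reach the mean count of 40 per group required for this fit, and in a fit without that limit its log2 fold change was -0.52 (SE 0.30, adjusted p = 0.252).

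The calls of Hba-a1 and Hbb-bt were less firm than those of the sums, whereas Hba-a2 and Hbb-bs kept theirs in all 26 alternatives (adjusted p up to 0.0217 and 0.0383). Hba-a1 lost its call without control replicate 1 (adjusted p = 0.0513) or control replicate 2 (0.0510), and Hbb-bt lost its call without any 1 of the control libraries (0.0529 to 0.0800) or without IH replicate 4 (0.0604). When trends with GC content and transcript length were removed from each library, Hba-a1 (log2 fold change -0.36, adjusted p = 0.0679) and Hbb-bt (-0.90, 0.0697) also lost their calls, and Hba-a2 and Hbb-bs kept theirs. After each pair was summed to 1 row, the alpha sum differed by -0.66 (SE 0.10, adjusted p = 0.00151) and the beta sum by -0.65 (SE 0.11, adjusted p = 0.00304). Both sums kept their calls under each of the 21 further settings tried, each library left out included, with log2 fold changes from -0.71 to -0.49 for alpha and from -0.74 to -0.58 for beta.

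In the SH vs. control comparison, none of the 4 members passed the adjusted threshold in edgeR, DESeq2 or limma, against a background of 10.5% of all tested genes called lower. Before adjustment 2 of them, Hba-a2 and Hbb-bs, were lower with p under 0.05 in each of the 3 tools. The log2 fold changes were -0.36 (SE 0.14, adjusted p = 0.0855) for Hba-a2, -0.30 (SE 0.12, adjusted p = 0.0854) for Hbb-bs, -0.32 (SE 0.27, adjusted p = 0.427) for Hbb-bt and -0.19 (SE 0.13, adjusted p = 0.302) for Hba-a1. Hbb-bs was the 1 member whose SH and control libraries did not overlap, against 10.6% of all tested genes. Alas2 stood at -0.18 (SE 0.29, adjusted p = 0.693) in the fit without the count limit. Single libraries moved the 2 sparser genes: Alas2 ranged from -0.30 without control replicate 2 to -0.05 without SH replicate 1, and Hbb-bt stood at -0.15 without SH replicate 3.

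SH replicate 1 decided part of this comparison. Its hemoglobin sum, 3061.8 normalized counts, lay inside the control range of 2884.2 to 3152.3, whereas the other 4 SH libraries had 2166.5 to 2465.9. That library also had the highest choroid plexus sum of the SH group, 99711 normalized counts. With the choroid plexus sum as a covariate and all libraries kept, Hba-a2 passed (-0.44, edgeR adjusted p = 0.0117) and so did the alpha sum (-0.30, 0.0492). Without SH replicate 1, Hba-a2 passed (-0.50, adjusted p = 0.00888), and so did the alpha sum (-0.37, 0.00518) and the beta sum (-0.37, 0.0307), against -0.26 (0.0808) and -0.31 (0.0682) with all libraries. With all libraries the beta sum also passed in DESeq2 (adjusted p = 0.0476) and with only the 2 groups compared (0.0344), and without IH replicate 3 it passed at 0.0401. Hbb-bs passed without IH replicate 3 (adjusted p = 0.0361), which enters this comparison only through the shared estimate of the spread. With GC content and length trends removed the SH difference of Hba-a1 turned to 0.04 (adjusted p = 0.886) and that of the alpha sum shrank to -0.04 (0.862).

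The IH vs. SH comparison was made between groups of the main experiment. The preliminary controls entered it only through the shared fit, that is the spread, the scaling and the count limit. None of the 4 members passed in edgeR, against a background of 0.899% of genes called lower, but all 4 log2 fold changes were negative and 3 had an unadjusted p under 0.05. Hba-a2 came closest (-0.47, SE 0.14, adjusted p = 0.0875) and was the 1 member lower without overlap, against 1.83% of all tested genes. It passed in DESeq2 (adjusted p = 0.0242), and limma called none. Hbb-bt stood at -0.66 (SE 0.27, adjusted p = 0.228), Hba-a1 at -0.35 (SE 0.12, adjusted p = 0.174), Hbb-bs at -0.24 (SE 0.11, adjusted p = 0.320) and Alas2 at -0.34 (SE 0.29, adjusted p = 0.649), which ranged from -0.52 without IH replicate 3 to -0.20 without IH replicate 2.

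With the copies summed, the alpha chain was lower in the IH group than in the SH group by a log2 fold change of -0.40 (SE 0.098, adjusted p = 0.0444), and the beta chain stood at -0.35 (SE 0.11, adjusted p = 0.117). The beta sum passed in 2 of the 21 further settings, DESeq2 (adjusted p = 0.0455) and without IH replicate 3 (0.0437). The alpha call was marginal. It was lost in 14 of the 21 further settings. The highest adjusted p, 0.116, came with only the 2 groups compared, which leaves the controls out. The call was also lost in every setting that left out 1 control library (0.0592 to 0.0654), SH replicate 1, 2, 3 or 5 (0.0573 to 0.0793) or IH replicate 1, 2, 4 or 5 (0.0811 to 0.112). All values under these settings were negative, from -0.45 to -0.29. The sum of all 4 genes in the IH group was 0.772 times the SH mean, with 4 of 5 IH libraries below the lowest SH library and IH replicate 3, at 2267.3, among the SH libraries.

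**Figure D2:**
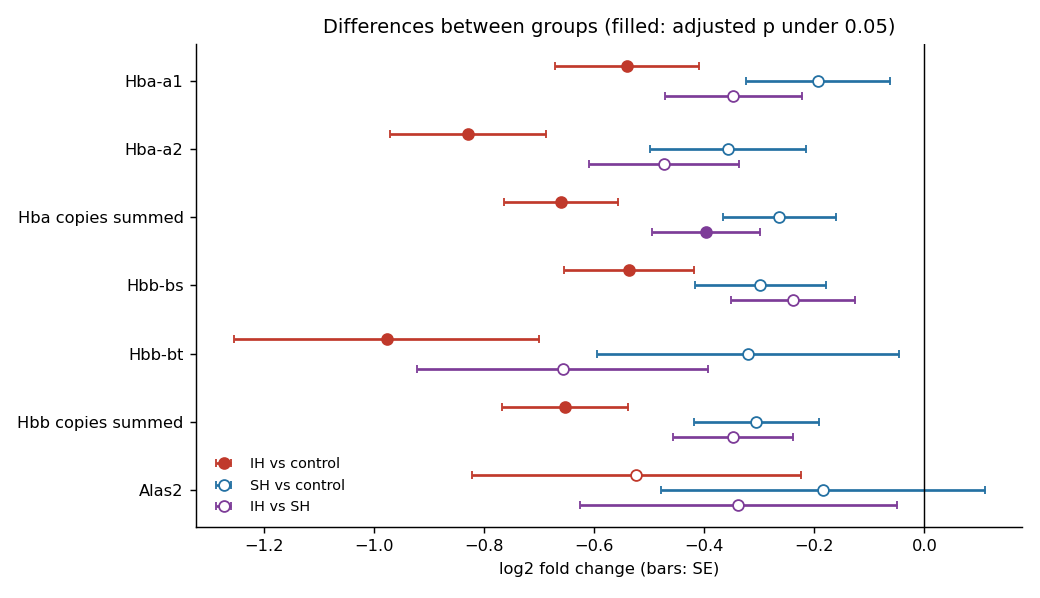
Log2 fold change (x axis, bars are SE) of each hemoglobin gene, of each pair of copies summed and of Alas2 (y axis) in the 3 comparisons. Filled points have an adjusted p under 0.05. In IH vs. control all 4 genes and both sums are filled, in IH vs. SH the alpha sum alone is filled at -0.40, and Alas2 is open throughout.

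The sum of the alpha copies varied far less than either copy in the control group, which was not so for every pair and group. In the control group the alpha sum was 1585.2, 1611.0, 1550.9 and 1559.3, a coefficient of variation of 1.72% that was no larger than the 2.42% that counting error alone gives. The separate genes varied by 11.8% (Hba-a1) and 15.1% (Hba-a2) in the same libraries, and control replicate 4 had the lowest Hba-a1 and the highest Hba-a2. In the IH group the alpha sum was 1003.2, 874.0, 1127.1, 1016.0 and 967.3, and in the SH group it was 1687.7, 1265.2, 1190.8, 1097.0 and 1321.1. In the SH group its coefficient of variation, 17.2%, was close to that of Hba-a1 alone, 17.6%, and in the control group that of the beta sum, 8.31%, was above that of Hbb-bs alone, 7.35%.

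The beta sum was 1364.1, 1494.1, 1333.2 and 1593.0 in the control group, 1022.0, 760.5, 1140.2, 785.3 and 889.8 in the IH group, and 1374.1, 1200.7, 1086.3, 1069.5 and 1117.0 in the SH group. Its IH libraries were all below its control libraries. The coefficient of variation of Hbb-bt was 35.6% in the IH group, where counting error alone gives 6.91%, and that of the beta sum there was 17.5%. The ratio of Hbb-bs to Hbb-bt was 2.24 to 2.59 in the control libraries, but 7.84 and 4.02 in IH replicates 2 and 3 and 5.42 in SH replicate 3, the remaining 7 hypoxia libraries having 2.06 to 2.61. The ratio of Hba-a1 to Hba-a2 ranged from 0.893 to 1.71 in the control group, 1.34 to 2.13 in the IH group and 1.29 to 1.99 in the SH group.

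**Figure D3:**
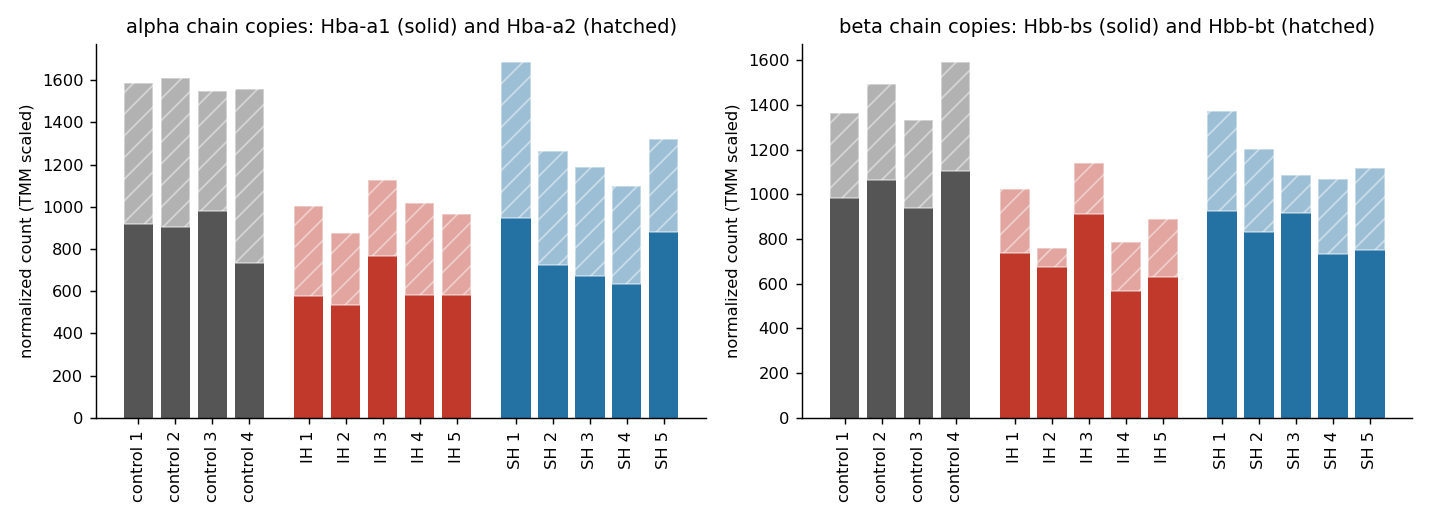
Normalized counts (y axis) of the alpha copies (left) and the beta copies (right) stacked for each library (x axis), the solid part being Hba-a1 or Hbb-bs and the hatched part Hba-a2 or Hbb-bt. The 4 control bars of the alpha pair end between 1550.9 and 1611.0 although their split differs, and the hatched part is small in IH replicate 2 and SH replicate 3 of the beta pair.

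The balance of alpha to beta chains was near the same value in the 3 groups. The ratio of the alpha sum to the beta sum was 1.16, 1.08, 1.16 and 0.979 in the control group, 0.982, 1.15, 0.988, 1.29 and 1.09 in the IH group, and 1.23, 1.05, 1.10, 1.03 and 1.18 in the SH group. The group ranges overlapped almost completely. The exact permutation test (two-sided) gave p = 0.984 for IH vs. control, p = 0.714 for SH vs. control and p = 0.762 for IH vs. SH, each with an adjusted p = 1 over the 12 ratio tests made, and 0.00794 is the smallest p that these group sizes allow. The other ratios did not pass either: the lowest p among the 12 was 0.198 in the exact permutation test, for Hbb-bs to Hbb-bt in IH vs. control. A p above the threshold does not show that the ratios are equal, and the range of the libraries gives the precision.

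Across the 14 libraries the alpha and beta sums followed each other, with Pearson r = 0.925 and Spearman rho = 0.934 on log2 values, r = 0.707 for deviations from the group means and r = 0.878 within the 10 hypoxia libraries. The copies of 1 chain, by contrast, hardly did within groups, at r = 0.046 for deviations of Hba-a1 and Hba-a2 and r = 0.022 for Hbb-bs and Hbb-bt. These values describe the libraries, which share their scaling between genes, and carry no test.

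**Figure D4:**
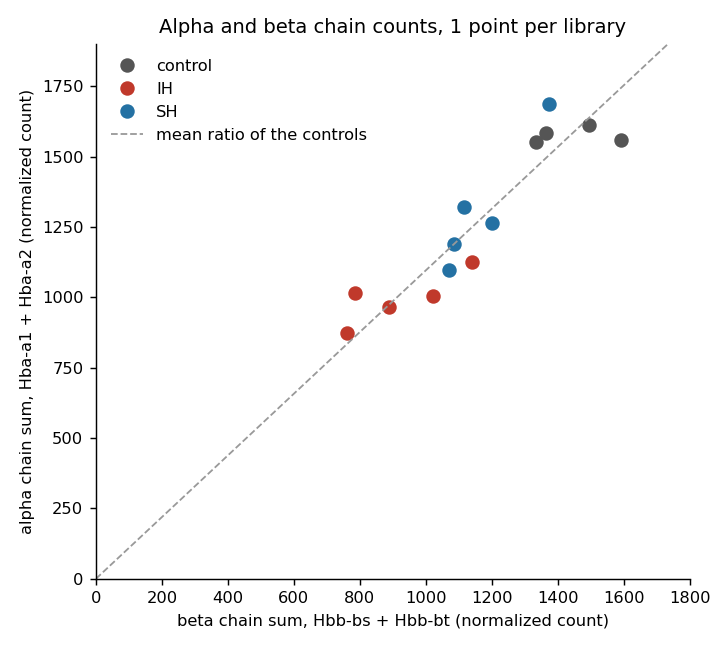
Alpha chain sum (y axis) against beta chain sum (x axis), both in normalized counts, with 1 point per library. The dashed line is the mean ratio of the control libraries, 1.10. Libraries of all 3 groups lie along it, the IH group at its lower end and the control group with SH replicate 1 at its upper end.

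Alas2 was lower relative to the control mean by an amount like that of the hemoglobin genes, at 0.697 times the control mean in the IH group and 0.885 times in the SH group, but with 117 to 155 counts in all per group. Alas2 made up 1.19% ± 0.25 (SD, n = 4) of the hemoglobin sum in the control group, 1.29% ± 0.28 (n = 5) in the IH group and 1.33% ± 0.52 (n = 5) in the SH group. Over the 14 libraries its correlation with the hemoglobin sum was r = 0.439, which ranged from 0.204 without IH replicate 2 to 0.626 without SH replicate 1, and deviations from the group means showed no relation (r = 0.0004). The Alas2 difference in IH vs. control was about as large as that of Hba-a1 and Hbb-bs, with an SE of 0.30 against 0.13 and 0.12. The log2 fold change of Alas2 ranged from -0.71 to -0.15 over 24 alternative settings, so its size is uncertain.

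None of the other enzymes and transporters of heme synthesis was called lower in the IH group. Of 16 genes on a list of this pathway, 9 besides Alas2 were in the table and all 9 were tested. In IH vs. control none was lower at an unadjusted p under 0.05 in edgeR, and neither DESeq2 nor limma called any lower. The median log2 fold change of the 9 was 0.04, against -0.69 for the 4 hemoglobin genes.

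In SH vs. control the genes called higher included Uros, uroporphyrinogen III synthase (0.30, edgeR adjusted p = 0.0143), and Cpox, coproporphyrinogen oxidase (0.31, edgeR adjusted p = 0.0393), against 10.1% of all tested genes called higher. In the same comparison 2 were lower, Ppox, protoporphyrinogen oxidase (-0.24, 0.0412), and Tmem14c, a protoporphyrin transporter (-0.33, 0.0213), against 10.5% of all tested genes called lower. In IH vs. SH none was called in edgeR, DESeq2 or limma, and 1 gene, Tmem14c (0.22, edgeR adjusted p = 0.234), had an unadjusted p under 0.05. Alad, the enzyme that follows the synthase step, stood at -0.05 (edgeR adjusted p = 0.792) in IH vs. control.

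Among genes of heme breakdown and hemoglobin clearance, 9 of 13 were in the table and 6 were tested. Blvrb, a biliverdin reductase that is abundant in red cells, was lower in SH vs. control (-0.62, edgeR adjusted p = 0.0212), where 10.5% of all tested genes were called lower. Its IH vs. control value was -0.48 (edgeR adjusted p = 0.0794), with group means of 131 ± 15.3 in the control group (SD, n = 4), 93.3 ± 16.6 in the IH group and 84.8 ± 15.3 in the SH group (n = 5). No gene of this list was called in IH vs. control or IH vs. SH by edgeR, DESeq2 or limma. In edgeR 4.85% and 0.899% of all tested genes were called lower in these comparisons, and 6.08% and 1.47% higher. In each of them 1 gene of the list, Blvrb and Hmox2, had an unadjusted p under 0.05 in edgeR. Cd163, the macrophage receptor that takes up hemoglobin bound to haptoglobin, missed the count limit in the control group, at 27.7 ± 7.95, and so was not in the main fit. Its means were 46.2 ± 7.66 in the IH group and 53.1 ± 11.6 in the SH group.

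Iron genes moved in both directions. Of 28 listed, 16 were in the table and 15 were tested, and in IH vs. control 1 was lower and 2 were higher, against 4.85% of all tested genes called lower and 6.08% called higher. Glrx5, a mitochondrial glutaredoxin of iron-sulfur cluster assembly, was lower (-0.31, edgeR adjusted p = 0.0423), and the ferroxidase Cp (0.51, 0.0463) and the iron-responsive element binding protein Ireb2 (0.24, 0.0129) were higher. In SH vs. control 2 were lower and 3 were higher, among them Ftl1, the ferritin light chain (-0.38, edgeR adjusted p = 0.00199), and Trf, transferrin (0.60, 0.0415), against 10.5% of all tested genes called lower and 10.1% called higher. In IH vs. SH edgeR called 1 iron gene, Ftl1, higher in the IH group (0.27, edgeR adjusted p = 0.0335), against 1.47% of all tested genes called higher. DESeq2 also called the iron exporter Slc40a1 lower there (-0.48, edgeR adjusted p = 0.0583), and limma called neither. Tfrc, the transferrin receptor of which erythroid precursors hold much, stood at -0.17 (edgeR adjusted p = 0.127) in IH vs. control.

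Neuroglobin (Ngb), a heme globin of neurons, was the 1 other globin in the table, at 40.9 ± 9.54 normalized counts in the control group, 70.1 ± 49.3 in the IH group and 54.1 ± 19.8 in the SH group. It was not called (0.79 in IH vs. control, edgeR adjusted p = 0.197), and IH replicate 5 alone stood at 156.7, the other 4 IH libraries having 41.1 to 64.4. Targets of hypoxia-inducible factors, 15 tested of 32 listed, included 3 higher and none lower in IH vs. control: Vegfa, the vascular growth factor (0.36, edgeR adjusted p = 0.00769), Pfkfb3, an activator of glycolysis (0.44, 0.00379), and P4ha1, a collagen prolyl hydroxylase (0.39, 0.0250). In SH vs. control 5 were higher and none was lower. The shares of all tested genes called higher in these comparisons were 6.08% and 10.1%. In IH vs. SH 1 target, Vegfa, was higher in the IH group in edgeR (0.50, adjusted p = 0.00154), DESeq2 and limma, against 1.47% of all tested genes. At an unadjusted p under 0.05, edgeR had 2 lower in IH vs. control and none in SH vs. control, and neither DESeq2 nor limma called any lower.

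Markers that would mark red cells independently of hemoglobin were mostly not analysed here. Of 22 erythroid-restricted genes, 3 were in the table, the erythropoietin receptor Epor, Tfr2 and the water channel Aqp1, and the defining markers Slc4a1 and Epb42 were not analysed here. None of the 3 was called in any comparison by edgeR, DESeq2 or limma, and none had an unadjusted p under 0.05. In IH vs. control the values were 0.38 (edgeR adjusted p = 0.277) for Epor, -0.39 (0.193) for Tfr2 and -0.46 (0.822) for Aqp1, which the choroid plexus list also holds and which varied with it (161 ± 305 normalized counts in the control group).

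A list of 26 genes rich in reticulocytes but also expressed in other cells had 10 in the table, all tested. In IH vs. control 1 was lower, the ubiquitin gene Ubb (-0.24, edgeR adjusted p = 0.0222), and 2 were higher, Mkrn1 (0.24, 0.0226) and Xpo7 (0.21, 0.0301), against 4.85% of all tested genes called lower and 6.08% called higher. The 2 higher calls were lost in limma. The SH vs. control comparison had 2 lower, Ubb (-0.31, edgeR adjusted p = 0.00421) and the peroxiredoxin Prdx2 (-0.21, 0.0325), and 2 higher, Mkrn1 (0.29, 0.00551) and Xpo7 (0.32, 0.00276), against 10.5% and 10.1% of all tested genes. Ubb supplied most of the summed level of this list, which was 39464 to 41598 normalized counts in the control group, 34712 to 41360 in the IH group and 35094 to 37277 in the SH group. IH replicate 3, the IH library with the most hemoglobin, was also the highest IH library here. All other IH libraries and all SH libraries were below the control range of this list, whose part in the hemoglobin result was not tested.

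Of 29 leukocyte markers 5 were in the table and 4 were tested, and Ptprc, the common leukocyte antigen, was not analysed here. Coro1a was lower in IH vs. control (-0.29, edgeR adjusted p = 0.0102) and in SH vs. control (-0.31, 0.00509), where 4.85% and 10.5% of all tested genes were called lower, and the other 3 tested, Lcp1, Lyz2 and Srgn, stood at 0.29, 0.50 and 0.57 in IH vs. control without a call. Coro1a supplied most of the summed level of this list, which was 2264 to 2309 in the control group, 1953 to 2313 in the IH group and 1786 to 2067 in the SH group. Of 12 platelet markers 2 were tested and none was called in any comparison by edgeR, DESeq2 or limma or had an unadjusted p under 0.05. Their group ranges overlapped, at 119 to 183 in the control group, 127 to 187 in the IH group and 114 to 146 in the SH group. The correlation with the hemoglobin sum over the 14 libraries and within the 10 hypoxia libraries was r = 0.627 and 0.188 for the reticulocyte-rich list, 0.498 and -0.038 for leukocyte markers, 0.373 and 0.570 for the 3 erythroid-restricted genes and 0.083 and -0.135 for platelet markers. Without the 2 libraries farthest from each list's median, the 14-library values became 0.666, 0.723, -0.054 and -0.051 (n = 12), in the same order. The part of blood cells in the hemoglobin result was not tested.

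Of 35 endothelial markers 29 were tested, and in IH vs. control 1 was lower (Itm2a, -0.28, edgeR adjusted p = 0.0216) and 2 were higher (Ly6c1, 0.46, 0.0270, and Mfsd2a, 0.56, 0.0261), near the 4.85% and 6.08% of all tested genes called. Between SH and control 1 was lower in the SH group (Sox18, -0.76, edgeR adjusted p = 0.0398) and 4 were higher, among them Slco1a4 (0.40, 0.0012) and Itm2a (0.32, 0.00703), against 10.5% and 10.1% of all tested genes. In IH vs. SH, which compares groups of the main experiment, 2 were lower, the same direction as hemoglobin, against 0.899% of all tested genes. These were Itm2a (-0.60, edgeR adjusted p = 0.000324) and the organic anion transporter Slco1a4 (-0.40, 0.00444). Of the 29, 20 had a log2 fold change below 0, with a median of -0.08. None was higher there in edgeR, DESeq2 or limma, and 3 were higher at an unadjusted p under 0.05 in edgeR. The part of vessel content in the hemoglobin result was not tested. The endothelial sum was 19970 to 23155 in the control group, 20675 to 22759 in the IH group and 21835 to 24786 in the SH group. Its correlation with the hemoglobin sum was r = 0.709 within the 10 hypoxia libraries, 0.460 for deviations from the group means and 0.226 over all 14. The last value ranged from 0.097 to 0.434 when 1 library was left out. Of 16 mural cell markers 12 were tested and none was called in any comparison by edgeR, DESeq2 or limma, with 1 lower and 1 higher at an unadjusted p under 0.05 in IH vs. control in edgeR.

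The choroid plexus, a highly vascular tissue that is easily taken with the hippocampus, was present to very different degrees. Its summed marker level was 33913 to 134067 normalized counts in control replicate 4, IH replicates 1 and 4 and SH replicates 1, 2 and 5, and 5341 to 13283 in the other 8 libraries. Its correlation with the hemoglobin sum was r = 0.075 over the 14 libraries, 0.412 for deviations from the group means and 0.330 within the 10 hypoxia libraries. With the choroid plexus sum as a covariate all 4 hemoglobin genes kept their calls in IH vs. control, and Hba-a2 passed in SH vs. control (-0.44, edgeR adjusted p = 0.0117) and in IH vs. SH (-0.45, 0.0326). Of 17 markers of meninges and fibroblasts 16 were tested, and the 1 call was Fmod, higher in SH vs. control (1.39, edgeR adjusted p = 0.0429), a share below the 10.1% of all tested genes called higher.

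**Figure D5:**
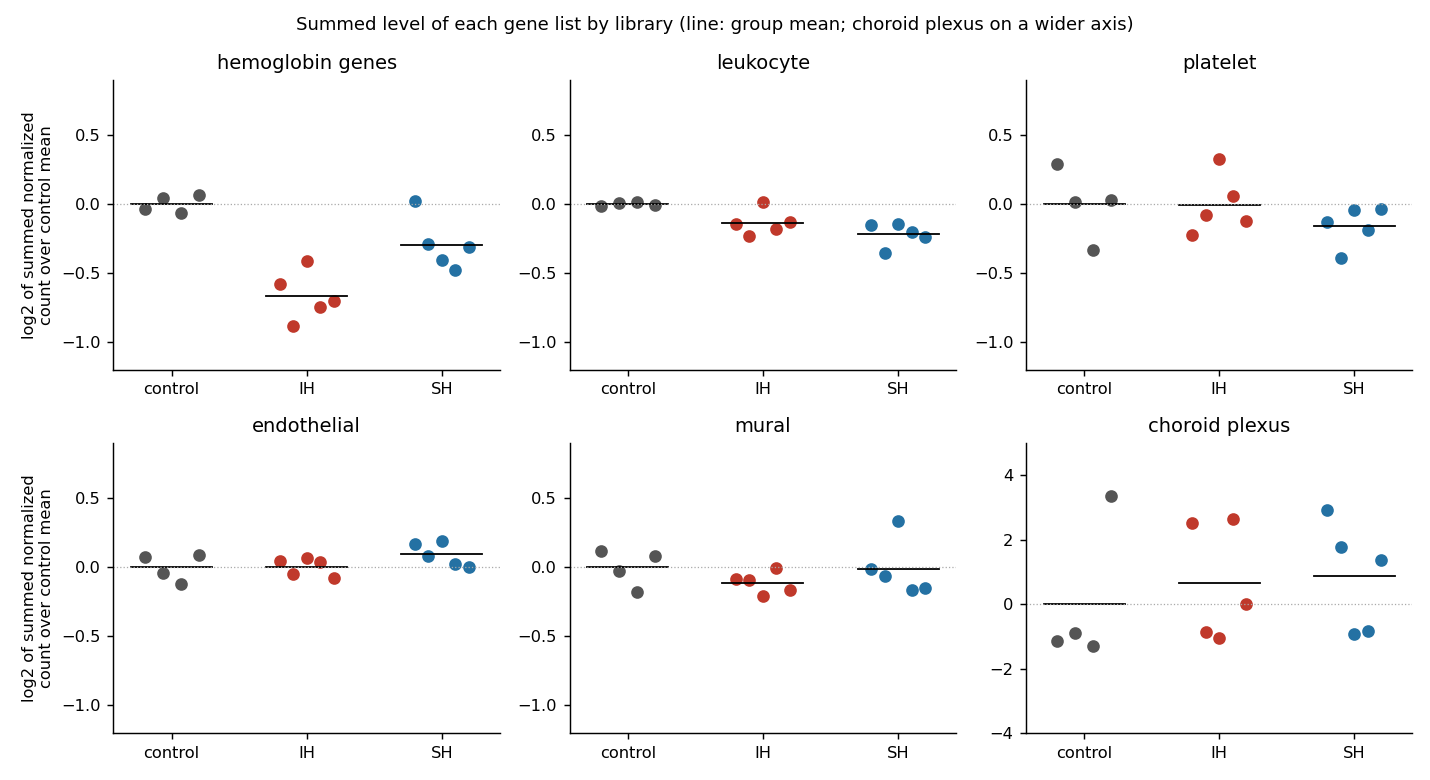
Log2 of the summed normalized count of the hemoglobin genes and of 5 marker lists, relative to the control mean (y axis), for each library of the 3 groups (x axis), with group means as lines. The hemoglobin panel has the IH group lowest, all IH libraries below all control libraries, and the endothelial panel has overlapping groups. The choroid plexus panel is drawn on a wider axis.

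The genes whose level followed the hemoglobin sum most closely over the 14 libraries, members left out, were Ldb1 (r = 0.945), Ccdc124 (0.930), H1f10 (0.928), Arf6 (0.923), Rnf187 (0.915), Rps15 (0.902), Basp1 (0.893), Ndufa2 (0.888), Srf (0.867) and Frat2 (0.858), where the 95th percentile over 7334 genes was 0.634. None of the 10 was on the erythroid or reticulocyte lists, but only 3 and 10 genes of these were among the 7334, so this absence carries little information. Their transcripts had a median GC content of 60.2% and a median length of 1677 nt, against 51.1% and 3068 nt over the tested genes. The 4 hemoglobin genes, at 53.5% and 632 nt, are short. By deviations from the group means the 10 closest genes were other ones, led by Fcf1 (r = 0.882), Pop5 (0.878), Mettl21a (0.869), Csrnp1 (0.850) and Calr (0.833), where the 95th percentile was 0.546, and their median GC content and length were 55.2% and 1975 nt.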

How the data were processed

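Hippocampal poly(A) RNA of 4 control, 5 IH and 5 SH mice was sequenced as 150-bp paired reads from a directional library. According to the submitters' processing notes and the study's methods, the authors trimmed reads with fastp 0.23.4, aligned them to GRCm39 with HISAT2 2.2.1 and quantified genes with StringTie 2.2.1. The deposited values are estimated counts (expected counts) per gene, which were whole for all but 10 genes and were rounded here. The authors' table holds 7756 protein-coding genes that they had selected by count and by size of the processed signal, so shares and adjusted p-values hold within that selection. How multiply aligned reads were shared between copies is not given in the sources used here.

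Genes with a mean of at least 40 counts in every group (7338) were fitted together in 1 edgeR 4.0.16 quasi-likelihood model of 3 groups with TMM scaling (R 4.3.3), and p-values were adjusted by Benjamini-Hochberg with a threshold of 0.05. Alas2 missed that limit and was taken from the same model without it. DESeq2 1.42.0 and limma 3.58.1 were alternatives, as were other scalings and filters, a replicate block, GC content and length trends, a choroid plexus covariate, summed copies and each library left out. Settings that combine summed copies with another change were chosen after seeing the data. Ratios within a library were compared with exact permutation tests (SciPy 1.17.1). The tests were checked on simulated data. Some genes of the lists are not reported here. The planned permutation tests of the hemoglobin sum and of correlations are not reported. Libraries were treated as separate mice, as the labels number them but do not say so, and p-values measure the spread between them. The members, the gene lists and the rule for named genes (all members and any gene of the globin, heme, iron and erythroid lists, of other lists the genes called in a comparison and the 3 of highest mean, and the 10 genes most correlated with the hemoglobin sum by each measure) were chosen with earlier results of these data known. All 4 tested leukocyte genes were also named, a choice made after their values were seen. The labels name no pairing by replicate number, and the libraries were treated as unpaired. The correlation of deviations ran from -0.30 to 0.46 over 13 same-numbered pairs, with 6 above 0.1, which does not exclude a pairing. No pair of libraries within a group was a duplicate (lowest chi-square per degree of freedom 8.72 over 26 pairs). Sequences came from RefSeq and GENCODE vM39, and 7606 of 7756 symbols had a length and GC content.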

Additional observations from a re-analysis of the deposited data

Results flagged for a closer look

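Among 36 sets of group values examined for a library far from the rest of its group, 3 had one, and chance alone marks about 1 in 20 such sets. Hba-a1 in IH replicate 3 stood at 766.9 normalized counts, with a gap to the next library of 0.80 of the group's range. That library also had the highest Hbb-bs, Alas2 and hemoglobin sum of the IH group. The ratio of Hba-a1 to Hba-a2 was 1.99 in SH replicate 5 (gap 0.877 of the range), while the alpha sum of that library, 1321.1, lay within the range of its group. The ratio of Hbb-bs to Hbb-bt was 5.42 in SH replicate 3 (gap 0.949 of the range), with a beta sum of 1086.3 inside the range of the SH group. In both ratios the 2 genes are near-identical copies, and the part of read assignment in these values was not tested.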

How the results depend on the processing

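In IH vs. control 4 members were called, and in 23 of 27 alternatives the count was within 1.5 times of this. It was 2 with GC content and length trends removed and 1 at an adjusted p under 0.01, and it ranged from 2 to 4 without 1 library, the lowest being without control replicate 1 or 2. In SH vs. control, against 0 members, 1 was called with only the 2 groups compared (Hbb-bs, adjusted p = 0.0385) and 1 with choroid plexus markers as a covariate (Hba-a2), and the count ranged from 0 to 1 without 1 library. In IH vs. SH, against 0, the count was 1 with DESeq2 and 1 with the choroid plexus covariate, and it was 0 without any 1 library. With the copies summed the 1 call was the alpha sum, a single measurement that stands for both alpha genes. With the study's processing in limma Hbb-bt lost its call in IH vs. control (-1.10, adjusted p = 0.0559). The replicate block left the counts at 4, 0 and 0, and the 1 call lost under it was that of the alpha sum in IH vs. SH (adjusted p = 0.0600).

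The hemoglobin sum kept its sign without any 1 library, at -0.73 to -0.61, -0.37 to -0.25 and -0.43 to -0.29 on the log2 scale in IH vs. control, SH vs. control and IH vs. SH. Hba-a1 in SH vs. control turned from -0.19 to 0.036 with GC content and length trends removed, and the cause was not tested. Differences of log2 ratios near 0 changed sign when 1 library was left out. The alpha to beta ratio ranged from -0.059 to 0.041, -0.025 to 0.058 and -0.087 to 0.012 in these 3 comparisons, and Alas2 to hemoglobin from -0.036 to 0.23, -0.071 to 0.31 and -0.20 to 0.17. In SH vs. control Hba-a1 to Hba-a2 ranged from -0.0072 to 0.31 and Hbb-bs to Hbb-bt from -0.18 to 0.16. The log2 fold change of Alas2 in IH vs. control was -0.71 to -0.15 over 24 alternatives, and its adjusted p was 0.129 to 0.417. The authors' selection of genes, the shared reads of the copies and the preliminary controls limit all comparisons.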
